A study of Mus musculus with 3 samples.

Results

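The genes described here encode the adhesion machinery of the basal keratinocyte: Itga2, Itga3, Itga6, Itgb1, Itgb4 and Itgb5 (integrin subunits), Col17a1, Dst and Plec (hemidesmosome components) and Cd151 (a tetraspanin partner of integrins). They were chosen by name, and these 10 genes of the 31053 in the deposited matrices were followed across keratinocyte groups. The samples were 3 replicate single-cell RNA libraries of ear epidermis from 9-week-old C57BL/6N mice, an inbred strain, with no treatment and no second genotype. Epidermis was separated from the dermis with dispase, its basal face was digested with a trypsin/EDTA mix to free the cells, and the suspension was stored frozen before 5′ droplet libraries were made. No source used here says whether the libraries came from separate animals. With the library as a block in the fits, p-values measure how far group differences vary between libraries, a spread that may be technical.

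A UMI (unique molecular identifier) tags a single captured RNA molecule. Barcodes with 500 genes or more and no more than 10% of UMIs from mitochondrial genes were kept as cells and sorted into groups by the share of their own UMIs in marker transcripts. Follicle-gated cells had 2 or more of Sox9, Fst, Lgr5, Cd34 and Wif1 detected. Basal-gated cells had 0.5% or more of Krt5 plus Krt14 and less of Krt1 plus Krt10, transitional cells had 0.5% or more of both sums, spinous-gated cells had Krt1 plus Krt10 alone, and granular-gated cells had 1% or more of Lor. None of the 10 genes entered a gate. Levels are CPM, the UMIs of a gene summed over the cells of a group in a library and scaled to the same total. Groups are compared within genes, not genes with each other.

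Hemidesmosomes rivet the basal layer to the basement membrane. In them the α6β4 integrin and type XVII collagen span the membrane and meet laminin outside the cell, while plectin and the epithelial product of Dst (BP230) tie them to the keratins Krt5 and Krt14 inside it. The β1 integrins pair with the α2 subunit, which binds collagen, and with the α3 subunit, which binds laminin, and signal through actin-linked focal adhesions. Keratinocytes are known to lower their integrins when they leave the basement membrane for the spinous and granular layers.

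The 3 libraries held 1108, 2477 and 2493 barcodes with 15926683, 24480473 and 28176712 UMIs, and 5340 of 6078 barcodes passed the filters. The gates gave 122 follicle cells, 2312 basal, 196 transitional, 2099 spinous and 424 granular cells, plus 62 immune cells and 125 ungated cells. Median UMIs per cell ranged over the libraries between 3573.5 and 6833.5 in follicle cells, 7367 and 12198 in basal cells, 9491 and 13303 in transitional cells, 13598 and 21092.5 in spinous cells, and 18749.5 and 28482 in granular cells. Marker lists outside the gates were compared between groups. The spinous list of 4 genes summed to 22476 to 24704 CPM in spinous cells against 768 to 1616 in basal cells. It was higher still in granular cells (37677 to 41519), so the sum does not set the spinous gate apart from the granular one. Within the list, Mt4 averaged 5128 CPM in spinous cells against 202 in granular cells, while Krtdap, Sbsn and Dsc1 averaged more in granular cells. The granular list of 4 summed to 16451 to 26935 in granular cells against 306 to 413 in spinous cells. The basal list of 4 summed to 1593 to 2130 in basal cells against 209 to 278 in spinous cells, and to 3242 to 4144 in follicle cells. Scrublet marked 30 doublets, 8 of them among the 196 transitional cells (4.08%), against 2 of the basal cells (0.0865%) and 16 of the spinous cells (0.762%). Pairs of libraries shared between 0 and 8 of the barcodes kept.

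Promoter sequences are shown for 3 genes, picked after their values were seen, that stand for the patterns below: Itga3, with the greatest fall between the basal and spinous gates, Itgb5, which rose, and Col17a1, which was called lower at the second step out of the basal gate and not at the first. They are RefSeq windows on GRCm38.p6 of up to 250 bases before the annotated start, cut where the GENCODE gene body begins, so the Itga3 run has 163 bases (chr11:95076802-95076964, minus strand), the Itgb5 run 250 (chr16:33829415-33829664, plus strand) and the Col17a1 run 198 (chr19:47692095-47692292, minus strand). Capitals mark GGGCGG, a GC box, and CACCTG, an E box, searched with TGANTCA, an AP-1 motif, on both strands (CCGCCC and CAGGTG are the same motifs read on the other strand).
Itga3: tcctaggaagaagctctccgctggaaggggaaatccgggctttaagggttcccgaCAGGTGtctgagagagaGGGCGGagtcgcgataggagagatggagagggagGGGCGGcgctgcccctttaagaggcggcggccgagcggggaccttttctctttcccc
Itgb5: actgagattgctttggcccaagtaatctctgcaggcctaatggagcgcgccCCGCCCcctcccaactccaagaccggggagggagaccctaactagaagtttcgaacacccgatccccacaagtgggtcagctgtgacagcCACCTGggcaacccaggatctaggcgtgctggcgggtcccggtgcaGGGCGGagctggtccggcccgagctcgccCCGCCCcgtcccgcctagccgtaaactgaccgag
Col17a1: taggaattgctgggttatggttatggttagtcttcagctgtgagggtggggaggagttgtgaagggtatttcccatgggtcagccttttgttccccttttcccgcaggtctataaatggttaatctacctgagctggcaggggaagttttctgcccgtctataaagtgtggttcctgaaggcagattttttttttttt

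The printed Itga3 run holds 2 GC boxes and 1 E box, the Itgb5 run 3 GC boxes and 1 E box, and the Col17a1 run none of the motifs searched. The G and C share was 62.6% in the Itga3 run, 65.2% in the Itgb5 run and 45.5% in the Col17a1 run. Windows were found for 7 of the 10 genes (10 windows in all), of which 6 held GGGCGG, 4 held CACCTG and 0 held TGANTCA, against 32.7%, 17.2% and 6.75% of all 32851 RefSeq windows of that length. Itga3 and Itgb5, which changed in opposite directions, both hold GC boxes and an E box, and a match of letters is a description, not a bound site.

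Between the basal and spinous gates, 9 of the 10 genes fell and Itgb5 rose. Over all 10806 genes tested, 34.2% were called lower and 35.8% higher in spinous than in basal cells (70.0% in either direction) at an adjusted p of 0.05. The libraries of these groups did not overlap for any of the 10 genes, a count that was not made over all genes. The median log2 fold change was -2.63 over the 10 genes and 0.01 over all genes. All 10 calls held in each of the 15 alternative analyses tried, 150 fits in all. When libraries were scaled to total UMIs, the median of all genes moved to -0.37 and the calls over all genes were 2457 higher and 5645 lower, against 3870 and 3694 with TMM scaling, so changes are given relative to most genes.

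Itga6 (ENSMUSG00000027111, chr2:71745616-71858416, plus strand) encodes the α6 subunit, the laminin-binding chain of the hemidesmosomal integrin. It had 286, 283 and 299 CPM in the basal cells of replicates 1 to 3, 265, 209 and 258 in transitional cells, 33.9, 41.0 and 35.5 in spinous cells and 4.16, 5.99 and 8.38 in granular cells. Basal and transitional libraries came close to each other, and spinous libraries lay far below both. Spinous cells kept 12.7% ± 1.49 of the basal level (SD, n = 3), a log2 fold change of -2.59 ± 0.10 (SE, adjusted p = 3.78e-16 by edgeR).

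Itgb4 (ENSMUSG00000020758, chr11:115974709-116008412, plus strand) encodes the β4 subunit, which in epidermis pairs with α6 alone and whose long cytoplasmic tail binds plectin. Its levels were 298, 274 and 267 CPM in basal cells, 173, 124 and 146 in transitional cells, 18.0, 23.3 and 14.6 in spinous cells and 8.91, 3.17 and 6.16 in granular cells. Each group lay below the one before it in every library. The spinous level was 6.67% ± 1.62 of the basal one, with a log2 fold change of -3.53 ± 0.13 (adjusted p = 8.51e-17). Transitional cells held 84.3% ± 9.81 of the basal Itga6 level and 52.7% ± 6.52 of the basal Itgb4 level, and the difference between the chains of this pair was not tested.

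Col17a1 (ENSMUSG00000025064, chr19:47646344-47692094, minus strand) encodes type XVII collagen (BP180). It had 1137, 1174 and 1183 CPM in basal cells, 1085, 804 and 953 in transitional cells, 141, 153 and 133 in spinous cells and 25.5, 22.2 and 22.4 in granular cells. The transitional libraries spread more than the basal ones and lay below all 3 of them. The spinous level was 12.2% ± 0.903 of the basal one, and the log2 fold change -2.66 ± 0.13 (adjusted p = 2.49e-14).

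Dst (ENSMUSG00000026131, chr1:33908225-34308661, plus strand) and Plec (ENSMUSG00000022565, chr15:76170974-76232574, minus strand) encode the plakin linkers of the inner plaque, both from many isoforms that a count per gene does not separate. Dst had 555, 713 and 609 CPM in basal cells, 448, 459 and 524 in transitional cells, 87.2, 125 and 107 in spinous cells and 11.9, 14.5 and 13.6 in granular cells. Plec had 316, 310 and 326 in basal cells, 253, 225 and 292 in transitional cells, 140, 150 and 173 in spinous cells and 55.2, 40.5 and 54.0 in granular cells. Plec thus kept 48.7% ± 4.42 of its basal level in spinous cells, against 16.9% ± 1.05 for Dst. The log2 fold changes were -0.66 ± 0.10 for Plec (adjusted p = 3.13e-06) and -2.19 ± 0.12 for Dst (adjusted p = 2.32e-13). Plectin is also known from desmosomes and intermediate filaments of other cells. Counted per cell, Plec had 2.93, 2.07 and 2.74 UMIs in spinous cells against 3.88, 2.34 and 2.93 in basal cells, while Dst had 1.82, 1.72 and 1.70 against 6.83, 5.37 and 5.49. Plec overlaps Parp10 on the same strand, and Itga6 and Itgb4 overlap long non-coding genes on the opposite strand. The strand setting of the counting is not given, and the effect of such overlaps on the counts was not tested.

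Cd151 (ENSMUSG00000025510, chr7:141467392-141471473, plus strand) encodes a tetraspanin that binds the α3β1 and α6β4 integrins laterally. Its levels were 146, 133 and 134 CPM in basal cells, 77.9, 71.2 and 78.5 in transitional cells, 44.3, 45.7 and 46.0 in spinous cells and 18.4, 12.7 and 14.8 in granular cells. Spinous cells held 33.0% ± 2.30 of the basal level. The log2 fold change was -1.22 ± 0.08 (adjusted p = 9.11e-12).

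All 3 chains of the β1 receptors fell between the basal and spinous gates. Itgb1 (ENSMUSG00000025809, chr8:128685654-128733200, plus strand), the β1 subunit shared by the α2 and α3 receptors, had 153, 157 and 169 CPM in basal cells, 99.8, 79.0 and 76.8 in transitional cells, 10.2, 10.5 and 13.2 in spinous cells and 2.38, 2.82 and 3.20 in granular cells. Its log2 fold change between spinous and basal cells was -3.43 ± 0.11 (adjusted p = 8.15e-18). Itga3 (ENSMUSG00000001507, chr11:95044474-95076801, minus strand), the laminin-binding α3 subunit, had 82.0, 76.2 and 78.8 in basal cells, 43.8, 35.0 and 22.8 in transitional cells and 0.266, 1.66 and 0.538 in spinous cells. The spinous values rest on 2, 21 and 7 UMIs, and the fall of -6.03 ± 0.22 (adjusted p = 7.00e-17) was the greatest of the 10 genes. Itga2 (ENSMUSG00000015533, chr13:114833081-114932100, minus strand), the collagen-binding α2 subunit, had 22.4, 20.9 and 19.9 in basal cells, 7.30, 7.77 and 8.44 in transitional cells from 3, 6 and 10 UMIs, and 0.133, 0.951 and 0.230 in spinous cells from 1, 12 and 3 UMIs. It changed by -5.00 ± 0.27 (adjusted p = 1.21e-13). In both α genes the spinous cells of replicate 2 stood highest, and even there they held 2.18% of the basal Itga3 level and 4.55% of the basal Itga2 level. Without replicate 2 the log2 fold changes between spinous and basal cells were -7.02 for Itga3 and -6.15 for Itga2.

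Itgb5 (ENSMUSG00000022817, chr16:33829665-33949338, plus strand) encodes the β5 subunit, which pairs with αv and binds vitronectin, and went the other way. It had 8.55, 13.1 and 14.4 CPM in basal cells, 41.4, 37.6 and 43.0 in transitional cells, 55.3, 51.1 and 62.6 in spinous cells and 8.31, 13.4 and 4.19 in granular cells. Transitional and spinous libraries all stood above the basal ones, and granular libraries lay within or below the basal range. Its log2 fold change between spinous and basal cells was 2.58 ± 0.15 (adjusted p = 3.15e-13). Itgav, the α partner of β5, had 36.0, 38.9 and 43.0 CPM in basal cells, 38.9, 32.4 and 27.8 in transitional cells and 24.5, 30.6 and 27.1 in spinous cells. Itgav was not called between spinous and basal cells with TMM scaling (log2 fold change -0.14 ± 0.11, adjusted p = 0.257). In CPM its spinous libraries all lay below the basal ones, and with scaling to total UMIs it was called lower.

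**Figure D1:**
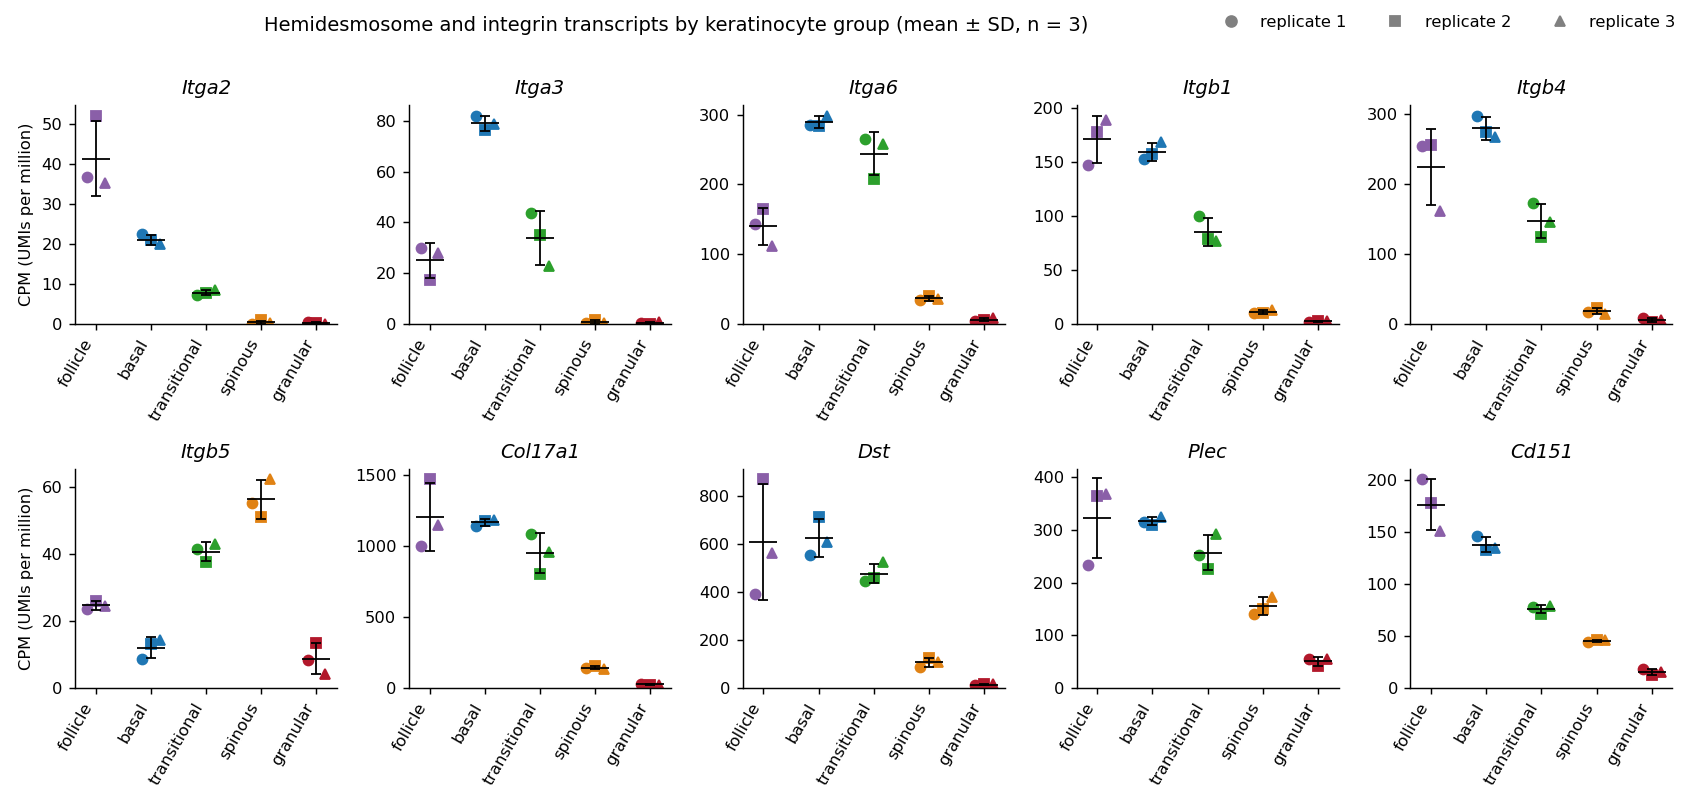
Level of each gene in CPM (vertical axis, linear from 0) in follicle, basal, transitional, spinous and granular cells, with 1 point per library and the mean ± SD of 3 libraries. In 9 panels the levels step down between basal and granular cells, steeply for Itga2 and Itga3 and shallowly for Plec and Cd151, and in the Itgb5 panel they peak in spinous cells at 51.1 to 62.6.

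The way out of the basal gate was then split into its steps. At the first step, transitional against basal cells, 6 genes fell, 1 rose and 3 were not called, where 10.2% of all 10806 genes were called lower and 12.8% higher (23.0% in either direction). Itga2 changed by -1.33 ± 0.34 (log2, SE, adjusted p = 0.00599), Itga3 by -1.31 ± 0.22 (adjusted p = 0.000116), Itgb1 by -0.94 ± 0.13 (adjusted p = 6.52e-06), Itgb4 by -0.89 ± 0.14 (adjusted p = 4.70e-05) and Cd151 by -0.81 ± 0.12 (adjusted p = 2.28e-05). Dst was called narrowly, at -0.35 ± 0.13 (adjusted p = 0.0474), and this call was lost without each replicate in turn (-0.38, -0.24 and -0.44 without replicates 1, 2 and 3). Itga2 missed the threshold without replicate 3 (-1.46, adjusted p = 0.0639), with at most 5% mitochondrial UMIs (-1.17) and on cells thinned to 3000 UMIs (-1.13). Itgb5 rose by 1.75 ± 0.26 (adjusted p = 2.37e-05), but was not called on thinned cells (0.98, adjusted p = 0.224).

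Itga6, Col17a1 and Plec, which were not called at the first step, changed by -0.22 ± 0.11 (adjusted p = 0.169), -0.27 ± 0.13 (adjusted p = 0.151) and -0.28 ± 0.12 (adjusted p = 0.0891). Their approximate 95% intervals, from a normal quantile, ran from -0.44 to -0.0036, from -0.52 to -0.014 and from -0.51 to -0.053. These are narrower than the edgeR test implies, whose unadjusted p was 0.0587 for Itga6, 0.0504 for Col17a1 and 0.0244 for Plec. In these 3 genes all transitional libraries lay below all basal ones, as they did for 9 of the 10 genes. That count was not made over all genes. Set against basal cells without cycling cells, these 3 genes were called lower (-0.35, -0.38 and -0.43). Col17a1 was also called lower with at most 5% mitochondrial UMIs (-0.39, adjusted p = 0.00872) and Plec with the keratin gate at 0.25% (-0.36, adjusted p = 0.0120). With the keratin gate raised to 1%, 41 transitional cells were left, replicate 2 with 9 fell under the minimum of 10 for a profile, and the 3 values came to 0.032, 0.035 and 0.0049. That stricter gate left 2 genes called lower and ended the calls of Itga2, Itga3, Itgb4 and Dst. Counted per cell, transitional cells had 3.52, 2.37 and 3.15 UMIs of Itga6 against 3.51, 2.14 and 2.69 in basal cells. For Col17a1 the counts were 14.4, 9.13 and 11.6 against 14.0, 8.85 and 10.6. For these 2 genes each transitional library was level with its basal counterpart or above it per cell. Plec had 3.35, 2.56 and 3.57 against 3.88, 2.34 and 2.93, which is lower in replicate 1. Transitional cells were also deeper, with median UMIs of 13303, 9491 and 11233 against 12198, 7367 and 8613.

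Because 4.08% of transitional cells were marked as doublets, the step was repeated without doublets and without the cells of highest UMI counts, on 174 transitional cells. Itga2, Itga3, Itgb1, Itgb4 and Cd151 were again lower (-1.51, -1.47, -0.94, -0.90 and -0.78) and Itgb5 higher (1.49), while Dst was not called (-0.16, adjusted p = 0.498). As a measure of where transitional cells stand, they held 71.1% ± 2.83 of the basal Krt5 level and 49.4% ± 1.42 of the basal Krt14 level, which the gates set in part.

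At the second step, spinous against transitional cells, 9 genes fell and Itgb5 rose, where 14.8% of all genes were called lower and 19.8% higher (34.6% in either direction). The log2 fold changes were -4.72 ± 0.39 for Itga3, -3.67 ± 0.56 for Itga2, -2.64 ± 0.16 for Itgb4, -2.49 ± 0.16 for Itgb1, -2.39 ± 0.14 for Col17a1, -2.37 ± 0.12 for Itga6 and -1.83 ± 0.13 for Dst. Cd151 (-0.41 ± 0.13, adjusted p = 0.0164) and Plec (-0.38 ± 0.12, adjusted p = 0.0137) fell least. Without replicate 2 the values were -5.57 for Itga3 and -4.84 for Itga2. The Cd151 call was lost without each replicate in turn (-0.40, -0.43 and -0.41 without replicates 1, 2 and 3), and the Plec call without replicate 3 (-0.39, adjusted p = 0.0857). Itgb5 rose by 0.83 ± 0.21 (adjusted p = 0.00316), but by 0.49 when libraries were scaled to total UMIs (adjusted p = 0.0970), where the median of all genes was -0.31. Over all genes that scaling gave 1009 higher and 3166 lower, against 2142 and 1598 with TMM.

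The steps were compared directly, as the second change minus the first. The keratin gates set the length of each step in part. Krt5 stood at 71.1% of its basal level in transitional cells and 1.39% in spinous cells, and Krt14 at 49.4% and 1.02%. The part of these unequal steps in the differences below was not tested. Of the 10 genes, 6 fell more at the second step than at the first: Itga3 (-3.41 ± 0.59, adjusted p = 0.00123), Itga6 (-2.15 ± 0.21, adjusted p = 1.45e-06), Col17a1 (-2.12 ± 0.22, adjusted p = 3.51e-06), Itgb4 (-1.75 ± 0.28, adjusted p = 0.000501), Itgb1 (-1.55 ± 0.26, adjusted p = 0.000916) and Dst (-1.48 ± 0.22, adjusted p = 0.000252). Over all genes, 2.47% were lower in this contrast and 0.574% higher (3.04% in either direction), or 588 lower and 15 higher with total-UMI scaling against 267 and 62 with TMM. Without replicate 3 the Itgb4 difference was -1.52 (adjusted p = 0.0613), and without replicate 2 the Itga3 difference was -4.13. The Itgb1 difference was not called with the 1% gate (-1.85, adjusted p = 0.0660) or on thinned cells (-1.21, adjusted p = 0.325). Itga2 (-2.34 ± 0.87, adjusted p = 0.161), Itgb5 (-0.92 ± 0.44), Plec (-0.10 ± 0.21) and Cd151 (0.41 ± 0.23) were not called. For Plec the approximate 95% interval of the difference ran from -0.52 to 0.31.

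**Figure D2:**
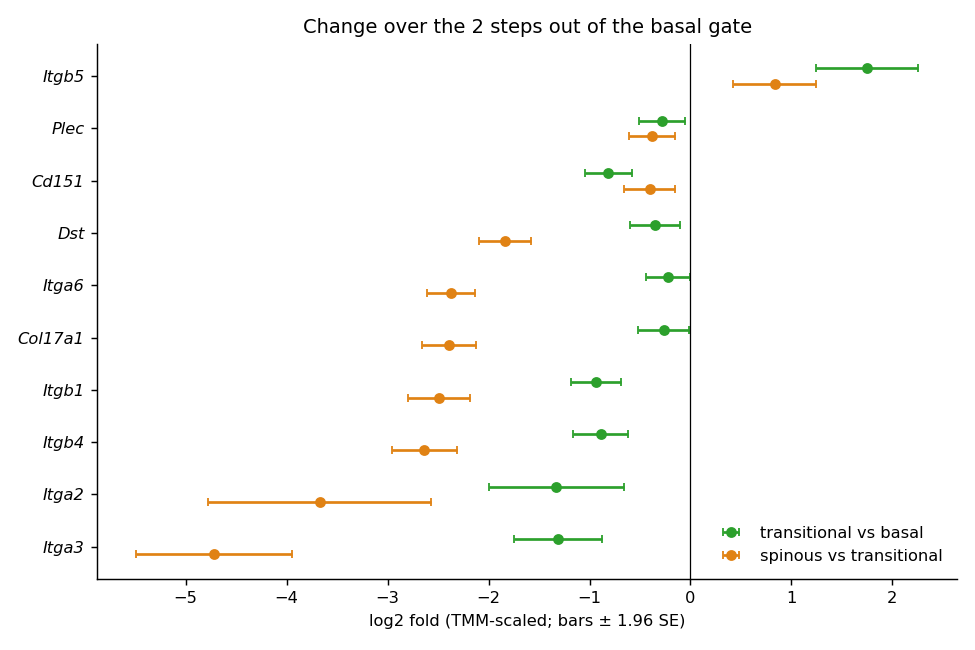
Log2 fold change (horizontal axis, TMM-scaled, bars giving approximate 95% intervals) of each gene for transitional against basal cells and for spinous against transitional cells. Itga6 and Col17a1 lie near 0 at the first step and beyond -2.3 at the second, Plec lies within 0.4 of 0 at both, Cd151 lies at -0.81 and then -0.41, and Itgb5 lies right of 0 at both.

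A finer order came from the keratin ratio, the share of Krt1 plus Krt10 among the UMIs of Krt1, Krt10, Krt5 and Krt14 in a cell, cut into 5 equal bins over basal, transitional and spinous cells. The bins held 2260, 115, 93, 109 and 2030 cells, and the middle bins of replicate 1 held 18, 12 and 16, so their values are rough and are given with no test. In the second bin (20 to 40% suprabasal keratin) Itga6 stood at 106% ± 18.5 of the first bin and Col17a1 at 100% ± 17.6, while Itga3 stood at 51.8% ± 31.0 (SD, n = 3). In the fourth bin (60 to 80%) Itga6 and Col17a1 were at 50.3% ± 8.33 and 50.7% ± 7.68, and Itga3 was at 19.9% ± 2.36. In the last bin they were at 11.7% ± 1.39, 11.1% ± 0.901 and 0.640% ± 0.501. Itgb5 stood at 187%, 256%, 410% and 507% of the first bin in the bins after it. Plec and Cd151 stood at 48.0% and 32.0% in the last bin.

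**Figure D3:**
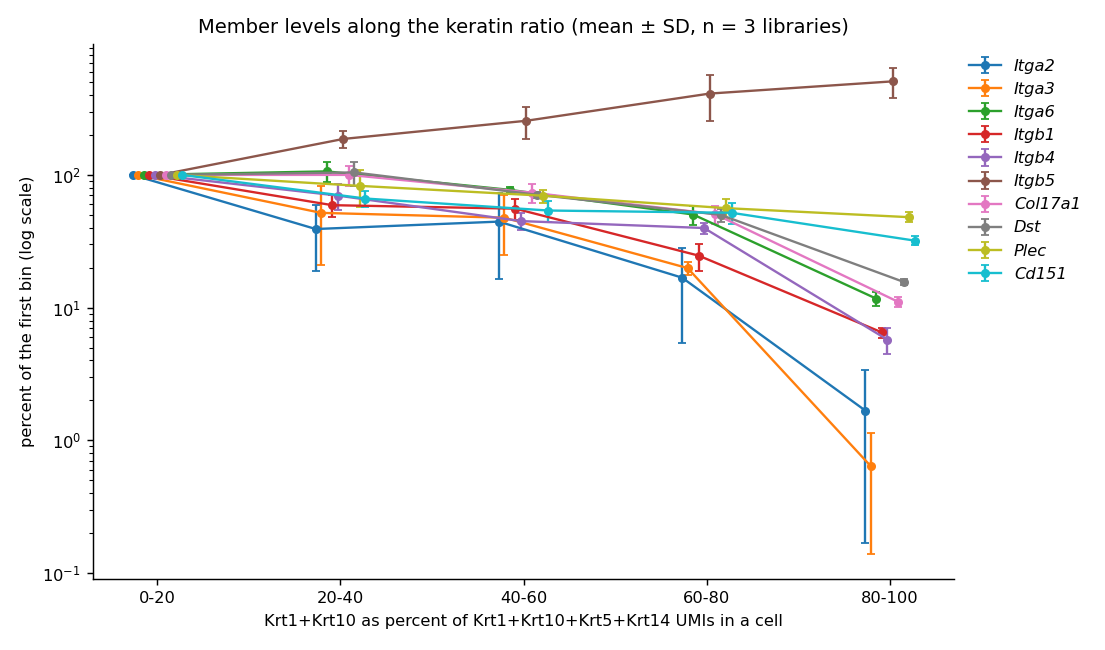
Level of each gene as a percent of its level in the first bin (vertical axis, log scale) against the keratin ratio of the cells in 20% bins (horizontal axis), as the mean ± SD of 3 libraries. Itga6, Col17a1 and Dst stay near 100% in the second bin, Itga2 and Itga3 fall below the other lines in the last, and Itgb5 climbs to 507%.

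The share of cells in which a transcript was seen followed the same order. Each cell was thinned to 3000 UMIs and shallower cells were left out, which kept 103 follicle cells, 2098 basal, 172 transitional, 2031 spinous and 400 granular cells. Immune cells, which should lack hemidesmosomes, served as background (50 of 62 kept, median depths of 3244 to 5049 UMIs before thinning). A Col17a1 UMI was found in 93.1% of basal cells (exact 95% interval 92.0 to 94.2), 89.0% of transitional cells (83.3 to 93.2), 27.6% of spinous cells (25.7 to 29.6) and 3.75% of granular cells (2.11 to 6.11), against 4% of immune cells (0.488 to 13.7). The immune share rests on 2 of 50 cells, too few to tell whether the granular share of Col17a1 was above background. Before thinning, the Col17a1 shares were 97.3%, 94.9%, 47.5% and 8.25%.

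Itga6 was found in 54.2% of basal cells (52.0 to 56.3), 48.3% of transitional cells (40.6 to 56.0), 12.2% of spinous cells (10.8 to 13.7) and 2.25% of granular cells, and Itgb4 in 52.1%, 41.3%, 5.91% and 0.750%. Itga3 was found in 21.9% of basal cells (20.1 to 23.7), 8.72% of transitional cells (4.96 to 14.0) and 0.197% of spinous cells (0.0537 to 0.503). In granular cells it was seen in 0 of 400, which allows a share of up to 0.750% when the limit is set at 3 counts (exact 95% upper bound 0.918%). Itga2, Itga3, Itga6 and Itgb4 were each seen in 0 of 50 immune cells, which allows up to 6% by the same 3 counts (exact 95% upper bound 7.11%). Itgb5 was found in 3.81% of basal cells (3.03 to 4.72), 7.56% of transitional cells (4.09 to 12.6) and 16.8% of spinous cells (15.2 to 18.5), against 2% of immune cells. Itgb1 and Plec are broadly expressed genes and were found in 40% and 52% of immune cells, so no background can be read from that group for them. Of the 10 genes, a thinned cell showed a median of 4 in the basal and in the transitional gate, 1 in the spinous gate and 0 in the granular gate. Cells with none of them made up 0.143% of basal, 1.16% of transitional, 26.9% of spinous and 76.8% of granular cells.

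**Figure D4:**
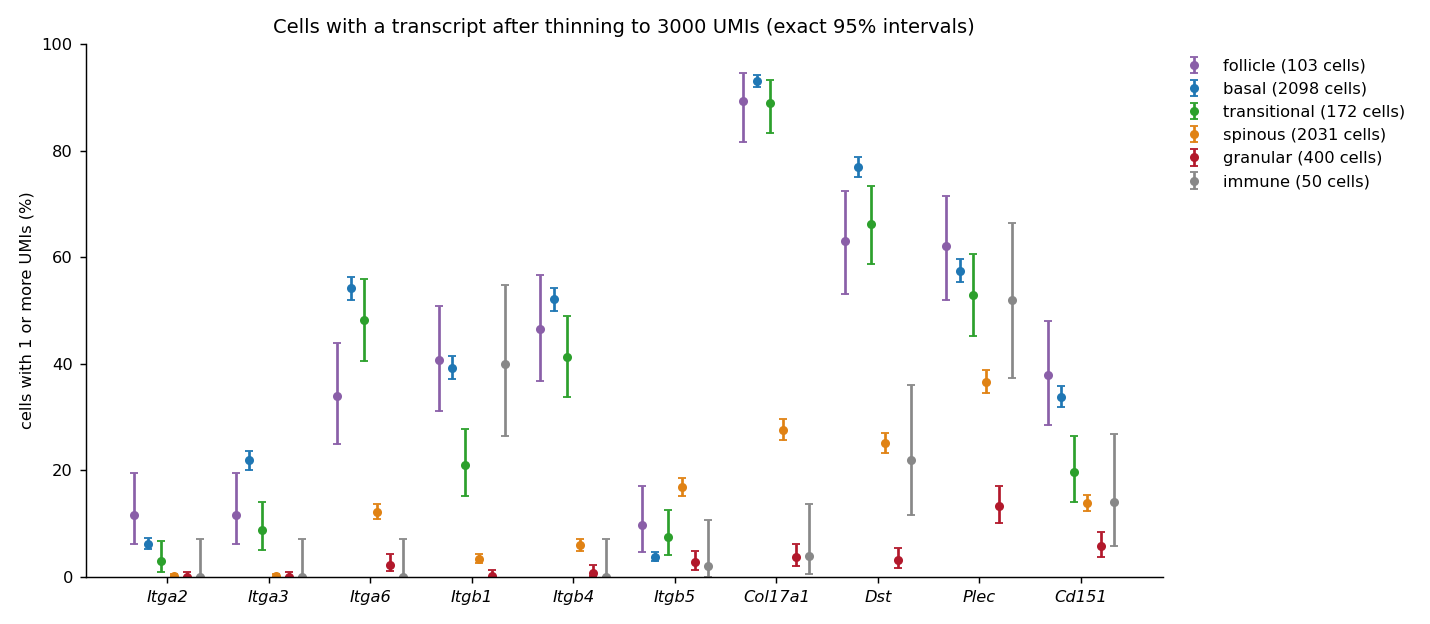
Percent of cells with 1 or more UMIs of each gene (vertical axis) after thinning to 3000 UMIs, by group, with exact 95% binomial intervals that cover counting error only. Col17a1 is seen in 93.1% of basal and 27.6% of spinous cells, and Itgb5 is the gene whose share is higher in spinous (16.8%) than in basal cells (3.81%).

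Granular cells, the last living layer, had still less adhesion transcript than spinous cells: 8 genes fell and 0 rose, where 39.1% of all genes were called lower and 30.3% higher (69.4% in either direction). Dst changed by -2.28 ± 0.17 (adjusted p = 4.55e-11), Itgb5 by -2.09 ± 0.21 (adjusted p = 9.18e-09; -2.70 without replicate 2), Col17a1 by -1.90 ± 0.16 (adjusted p = 2.18e-10), Itga6 by -1.74 ± 0.20 (adjusted p = 4.71e-08) and Itgb1 by -1.25 ± 0.26 (adjusted p = 0.000198). Plec (-0.94 ± 0.12), Cd151 (-0.88 ± 0.13) and Itgb4 (-0.95 ± 0.26, adjusted p = 0.00245) fell by less, and the Itgb4 call was lost without replicate 2 (-0.40, adjusted p = 0.151). Itga2 and Itga3 had 2 and 4 UMIs in all granular cells against 16 and 30 in spinous cells, ratios of 0.483 (exact 95% interval 0.0539 to 2.05) and 0.515 (0.132 to 1.46), and were not called. The median of all genes in this comparison was -0.25, and -0.96 with scaling to total UMIs (1958 genes higher and 6736 lower, against 3273 and 4229 with TMM), so these changes are relative to most genes.

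Follicle-gated cells, which were gated on follicle genes and not on keratins, had less α3 and α6 transcript than basal cells. The β4 call was narrow. Of these 122 cells, 75 also met the basal gate, while 10, 16 and 18 in replicates 1 to 3 met no keratin, Lor or immune gate. Against basal cells, 3 genes fell and 0 rose, where 7.00% of all genes were called lower and 9.00% higher (16.0% in either direction). Total-UMI scaling gave 1205 genes higher and 426 lower, against 972 and 756 with TMM. Itga6 had 144, 165 and 112 CPM in follicle cells, against 286, 283 and 299 in basal cells, a log2 fold change of -1.22 ± 0.16 (adjusted p = 3.99e-06). Itga3 had 30.1, 17.3 and 28.1 in follicle cells (9, 4 and 8 UMIs), against 82.0, 76.2 and 78.8 in basal cells (-1.79 ± 0.34, adjusted p = 0.000559). Both sets of follicle libraries lay wholly below the basal ones.

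Itgb4 had 254, 256 and 161 CPM in follicle cells, against 298, 274 and 267 in basal cells, and was called narrowly (-0.50 ± 0.16, adjusted p = 0.0364). That call held in only 7 of the 15 alternatives. It was lost without replicate 1 (-0.56) and without replicate 3 (-0.36), and with scaling to total UMIs (-0.33) or DESeq2 (-0.41). It was also lost without the block (-0.50), at 5% mitochondrial UMIs (-0.74), without doublets (-0.43) and on thinned cells (-0.50). Itga2 had 36.8, 52.0 and 35.1 in follicle cells (11, 12 and 10 UMIs), against 22.4, 20.9 and 19.9 in basal cells, with all follicle libraries above the basal ones, but was not called (0.78 ± 0.32, adjusted p = 0.107). Col17a1 (-0.13 ± 0.13), Itgb1 (-0.07 ± 0.14), Dst (-0.25 ± 0.14), Plec (-0.17 ± 0.13), Cd151 (0.19 ± 0.13) and Itgb5 (0.85 ± 0.47) were not called. The approximate 95% intervals ran from -0.39 to 0.13 for Col17a1 and from -0.35 to 0.21 for Itgb1. Dst was called lower when cycling cells were left out of the basal gate (-0.47, adjusted p = 0.0171). The follicle markers outside the gate summed to 2154 to 5091 CPM in follicle cells against 267 to 476 in basal cells. Most of this was Krt17 (means of 3531 against 24.5), with Lhx2 (152 against 0.973). Postn was level (303 against 299), Tnc was not higher (14.0 against 16.9), and Fbln2 had 3 UMIs in follicle cells. Other lists moved with the group too: 4 sebocyte markers summed to 433 to 2400 against 95.3 to 118, 5 fibroblast markers to 26.0 to 104 against 0.144 to 18.4 with Col3a1 and Lum at 0 in follicle cells, and 4 melanocyte markers to 3.35 to 116 against 0.576 to 2.24 with Mlana at 0. Among the sebocyte markers Krt79 (means of 1168 against 17.7), Mgst1 (75.1 against 29.3) and Elovl6 (31.0 against 18.5) were higher. Scd1 was lower (28.0 against 42.1). The part of these lists in the differences of the 10 genes was not tested.

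Within the basal gate, cells with 0.1% or more of their UMIs in 8 mitotic genes were set against the rest. These cycling cells numbered 78, 112 and 175, against 369, 809 and 769 other basal cells, and had more UMIs per cell, with medians of 17705, 8972.5 and 13198 against 11552, 7315 and 8189. With TMM scaling, 7 of the 10 genes fell in cycling cells and 0 rose. Of the 9930 genes tested, 19.4% were called lower and 21.1% higher (40.5% in either direction). With scaling to total UMIs, 6 of the 10 fell and 1 rose, where 1651 of all genes were lower and 2367 higher. Dst stood out in size: it had 313, 373 and 346 CPM in cycling cells against 628, 775 and 698 in other basal cells, a log2 fold change of -1.08 ± 0.06 (adjusted p = 1.03e-12). Plec had 238, 202 and 250 in cycling cells against 339, 330 and 351 in other basal cells (-0.62 ± 0.07, adjusted p = 2.05e-07). The other called genes were Itga2 (-0.92 ± 0.21, adjusted p = 0.00134), Itga3 (-0.54 ± 0.11, adjusted p = 0.000450), Itga6 (-0.46 ± 0.08, adjusted p = 4.96e-05), Col17a1 (-0.35 ± 0.05, adjusted p = 5.84e-06) and Itgb1 (-0.20 ± 0.08, adjusted p = 0.0442).

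The Itgb1 call in cycling cells was lost without each replicate in turn (-0.19, -0.18 and -0.24 without replicates 1, 2 and 3) and the Itga2 call without replicate 3 (-0.57, adjusted p = 0.0581), by DESeq2 (-0.87) and on thinned cells (-0.44). Itgb4 (-0.07 ± 0.07, approximate 95% interval -0.21 to 0.07), Itgb5 (-0.46 ± 0.24) and Cd151 (0.18 ± 0.08, adjusted p = 0.0806) were not called. Cd151 was called higher when libraries were scaled to total UMIs (0.23). Counted per cell, Dst was still lower in cycling than in other basal cells (a mean over libraries of 4.32 against 6.19 UMIs). Col17a1 (12.5 against 10.9), Itgb4 (3.57 against 2.55), Itgb1 (1.87 against 1.46) and Cd151 (2.01 against 1.20) were higher per cell. Cycling cells made up 15.8% of basal cells and 6.63% of transitional cells.

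**Figure D5:**
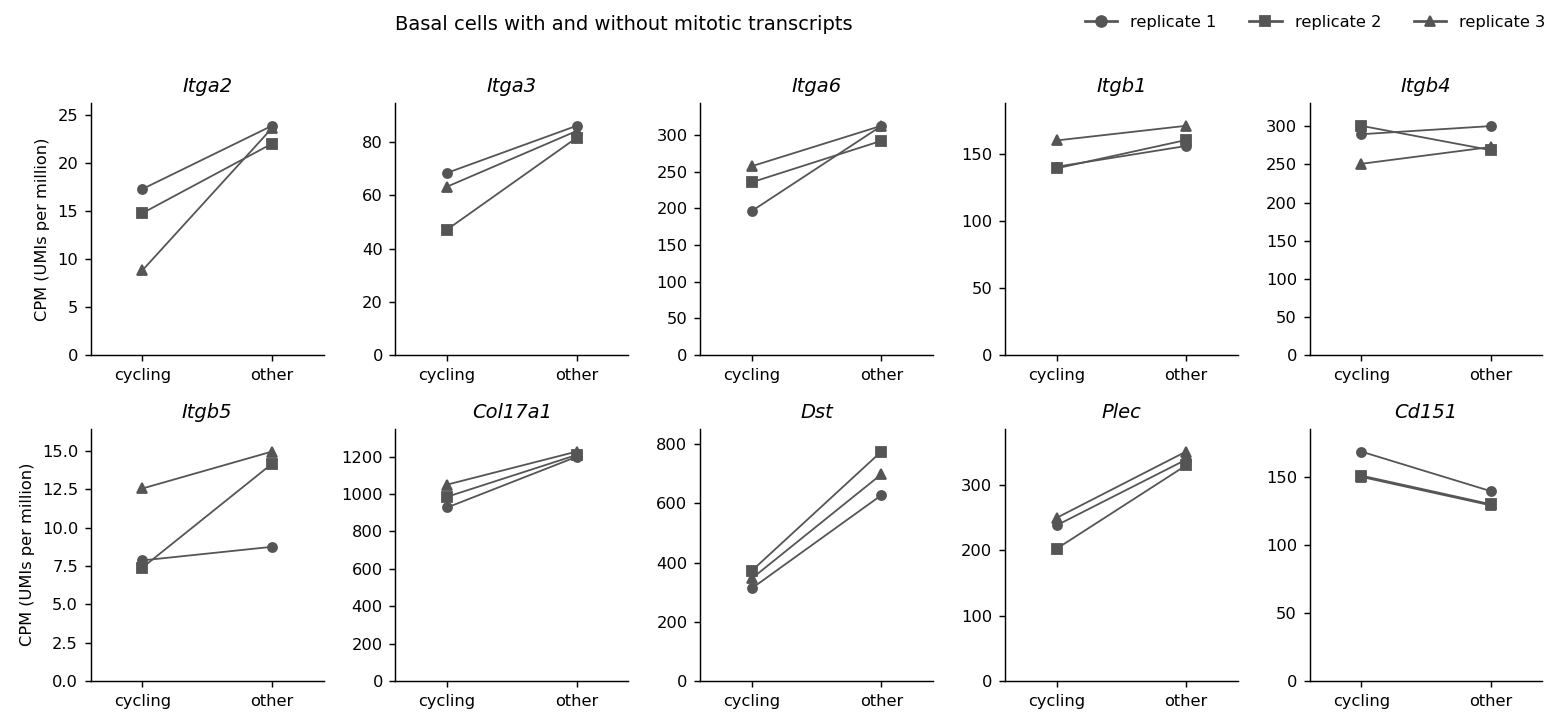
Level of each gene in CPM (vertical axis, linear from 0) in cycling and in other basal cells, with a line for each of the 3 libraries. All 3 lines rise toward the other basal cells for Dst, Plec, Itga2, Itga3, Itga6, Col17a1, Itgb1 and Itgb5, cross for Itgb4 and fall for Cd151.

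The surroundings of the 10 genes were read from 4 lists, of which the members that passed the low-count filter are counted for spinous against basal cells, where 34.2% of all genes were lower and 35.8% higher. Of 8 laminin and anchoring genes tested (of 11), 8 fell, with a median of -3.36. Lamb3, the β3 chain of the epidermal laminin that α3β1 and α6β4 bind, had 0.931, 3.33 and 1.54 CPM in spinous cells against 114, 129 and 103 in basal cells (-5.43 ± 0.18, adjusted p = 2.43e-17). Hspg2, the basement membrane proteoglycan perlecan, had 0 UMIs in spinous cells against 128 in basal cells, at least 67.6-fold lower with 3 counts over the group as the floor. Of 23 adhesion adaptors tested (of 27), 17 fell and 1 rose, with a median of -1.76. With scaling to total UMIs 22 were called lower, where 5645 of all 10806 genes were. All 4 tensins, which link integrin tails to actin, were called lower, by unequal amounts: Tns3 changed by -4.61 ± 0.49 (adjusted p = 1.63e-08), Tns1 by -4.36 ± 0.14 (adjusted p = 1.99e-17), Tns2 by -3.78 ± 0.46 and Tns4 by -0.65 ± 0.10 (adjusted p = 2.08e-06). Tns2 and Tns4 were added after their values were seen. Nedd9, a docking protein of integrin signalling, had 3 UMIs in spinous cells and 67 in basal cells, 35.4 times lower in CPM (11.6 to 176).

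Of 13 tetraspanins and lateral partners tested (of 16), 8 fell and 4 rose in spinous cells, with a median of -0.66, and the share that rose is near the 35.8% of all genes. Cav1, the caveolae protein caveolin, fell by 3.64 ± 0.13 on the log2 scale (adjusted p = 6.45e-17), Tspan3 by 2.65 ± 0.13 and Tspan4 by 2.24 ± 0.31. Cd82, a tetraspanin, had 93.2, 110 and 97.4 CPM in spinous cells against 38.4, 37.2 and 36.5 in basal cells (1.80 ± 0.10, adjusted p = 2.15e-13). Lgals3, galectin-3, rose by 1.80 ± 0.13 and Tspan8 by 5.73 ± 0.49, with 4 UMIs in all basal cells. The other integrin subunits were scarce: 4 of 20 were tested, and the 16 others had between 0 and 60 UMIs in all 5 groups. Itga2b, known from platelets, was lower in spinous cells (-2.12 ± 0.34, adjusted p = 7.88e-06) at levels under 7 CPM. Itga1, the α1 subunit, had 32 UMIs in spinous cells against 3 in basal cells, 6.74 times more in CPM (2.11 to 34.4).

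In follicle cells, where 9.00% of all genes were higher and 7.00% lower, 2 of the 4 other integrins tested rose and 0 fell. Itgb8, whose product pairs with αv and activates latent TGF-β, had 23.4, 21.7 and 42.1 CPM in follicle cells against 0.182, 0.576 and 0.588 in basal cells (5.74 ± 0.61, adjusted p = 1.20e-06). Itga1 had 9 UMIs in follicle cells against 3 in basal cells, 77.1 times more in CPM (19.2 to 443). Hspg2 was also higher in follicle cells (3.04 ± 0.34, adjusted p = 1.02e-06), and Col7a1, the anchoring fibril collagen, lower (-0.90 ± 0.23, adjusted p = 0.00902). Of the 8 laminin and anchoring genes tested, 2 rose and 1 fell in follicle cells. Of the 23 adaptors, 6 rose and 0 fell, among them the actin cross-linker Actn1 (2.78 ± 0.24, adjusted p = 1.23e-08).

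The genes whose profile was most like the mean of the 10, over 15 profiles of 5 groups in 3 libraries, were Cyb5r3 (r = 0.994), Capg (0.994), Atrx (0.993), Vezf1 (0.993) and Lama3 (0.990), among 6907 genes with 20 or more CPM in 3 or more profiles. Points of this Pearson r share libraries and depth, and it is given as a description. Capg, an actin filament capping protein, averaged 329 CPM in basal cells, 229 in transitional cells, 44.9 in spinous cells, 4.88 in granular cells and 309 in follicle cells. Lama3, the α3 chain of the laminin the integrins bind, averaged 65.3, 43.8, 10.6 and 1.71 over the 4 layers in the same order and 51.4 in follicle cells. Among the 10 genes themselves, Col17a1 lay nearest to their mean (r = 0.999) and Itgb5 farthest (r = 0.315).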

How the data were processed

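The authors used Cell Ranger 3.1.0 and build mm10, per the submitters' processing notes, and their deposited matrices hold raw UMI counts per gene and barcode. The annotation version and the strand setting of the counting are not given in the sources used here. Positions come from GENCODE M21 on GRCm38.

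Genes and lists were chosen with earlier results of these data known. Gates were made disjoint in the order follicle, granular, transitional, basal, spinous, immune (2 or more of 6 immune genes, 4 keratins under 0.5%). Counts were summed per library and group (at least 10 cells) and fitted in edgeR 4.0.16 (R 4.3.3) with TMM, the package's low-count filter, the library as a block and a quasi-likelihood test. All 10 genes passed the filter. Adjusted p-values are Benjamini-Hochberg values across the whole table. Log2 fold changes are TMM-scaled, and their SE is the change over the root of F. The scripts were tested on simulated data. The pairing is by construction, since every library gives every group. Deviations of profiles from one library correlated at r of 0.200 to 0.383 between transitional and basal cells, 0.385 to 0.444 between spinous and basal cells, 0.242 to 0.326 between spinous and transitional cells, 0.157 to 0.345 between granular and spinous cells and 0.0334 to 0.351 between follicle and basal cells.

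Alternatives were total-UMI scaling, DESeq2 1.42.0, no filter, no block, each library left out, keratin gates of 0.25% and 1%, 1000 genes, 5% mitochondrial UMIs, no doublets (Scrublet in scanpy 1.11.5), follicle cells kept in their layer, no cycling cells and thinning. Named genes were the 10, other tested integrins, the 3 greatest falls and rises among the adaptors and among the tetraspanins, the 2 greatest changes among the laminins, and 5 genes of like profile. An adaptor that this rule names is not reported here. Intervals of UMI ratios and shares are exact and cover counting error only. Protein sequences were not analysed here.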

Additional observations from a re-analysis of the deposited data

How the results depend on the processing

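Over the comparisons and alternatives, 1039 fits of single genes were made, of which 952 kept their direction and their side of the threshold, 55 lost a call, 8 gained one and 24 changed sign. No gene that was called changed sign, and all 150 fits for spinous against basal cells kept their call. Without the replicate block (the pairing by library), the counts of genes called lower were 5 for transitional against basal cells, 9 for spinous against basal, 8 for spinous against transitional, 8 for granular against spinous, 2 for follicle against basal, 6 for the second step minus the first and 6 for cycling against other basal cells. The calls lost were Dst for transitional against basal cells, Plec for spinous against transitional, Itgb4 for follicle against basal and Itgb1 for cycling cells, and the count over all genes moved by over 1.5 times for the difference of steps alone, to 170.

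Over all genes, thinning gave 853 genes for transitional against basal cells, 4235 for spinous against basal, 1391 for spinous against transitional, 4367 for granular against spinous, 976 for follicle against basal, 123 for the difference of steps and 1844 for cycling cells. The 1% gate gave 1117 for transitional against basal cells and 1621 for spinous against transitional. Leaving out a replicate gave 989 to 2013 for transitional against basal cells, 2347 to 2951 for spinous against transitional, 1007 to 1413 for follicle against basal and 85 to 265 for the difference of steps. That difference had 603 genes with total-UMI scaling, 592 without the filter and 831 with the 0.25% gate, and the cycling comparison 1963 by DESeq2. Of the 10 genes, 2 were lower at the first step with the 1% gate and 0 higher after thinning. Itgb5 at the second step was not called (0 higher) with total-UMI scaling, DESeq2, the 1% gate or 5% mitochondrial UMIs. In follicle cells 1 gene was lower at 5% mitochondrial UMIs, where replicate 1 had 6 cells and no profile. In cycling cells 1 was higher with total-UMI scaling.

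The sign changes were all in genes not called. At the first step the 1% gate gave 0.032 for Itga6, 0.035 for Col17a1 and 0.0049 for Plec. For granular against spinous cells, Itga2 ranged over -0.99 to 0.56 as replicates were left out (0.11 without replicate 3), with 0.057 at the 0.25% gate and 0.069 with 1000 genes. Itga3 there ranged over -1.62 to 1.39, with 0.063 by DESeq2, 0.90 at the 0.25% gate and 0.10 at 5% mitochondrial UMIs. For follicle against basal cells, Itgb1 ranged over -0.14 to 0.015 and Plec over -0.29 to 0.039 as replicates were left out. Itgb1 gave 0.099 with total-UMI scaling, 0.031 by DESeq2 and 0.088 thinned, Col17a1 0.045 and 0.15 with total-UMI scaling and thinned, Plec 0.0060 and 0.063 with the same settings, and Cd151 -0.098 at 5% mitochondrial UMIs. In the difference of steps Plec gave 0.019 with the 0.25% gate and 0.069 without cycling cells, and Itgb5 0.46 thinned. Itga2 and Itga3 rest on at most 30 UMIs each in spinous cells, which limits what can be said of them there. The cause of these shifts was not tested.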

Other observations

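The 125 ungated cells, which met no keratin, Lor, follicle or immune gate, lay between the basal and spinous gates for most of the 10 genes. Col17a1 averaged 472 ± 149 CPM in them (SD, n = 3 libraries), Dst 328 ± 148, Itga6 101 ± 35.2 and Itgb4 99.4 ± 44.9. Their 4 sebocyte markers summed to 1254 to 13639 CPM, against 95.3 to 118 in basal cells.

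In the 62 immune-gated cells Itga2, Itga3, Itga6 and Itgb4 had 0 UMIs in all 3 libraries. Itgb1 averaged 173 ± 20.9 CPM there, against 160 ± 8.16 in basal cells, and Plec 386 ± 163 against 317 ± 7.82. Replicate 1 held only 3 immune cells, with 2 UMIs of Itgb1 (189 CPM) and 6 of Plec (568 CPM). In replicates 2 and 3 Itgb1 had 181 and 150 CPM and Plec 251 and 339, on both sides of the basal means.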
